A study of Mus musculus with 18 samples.

Results

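The genes described here, 10 of ERK feedback and EGF-family signalling, were followed across 18 mouse arrays. They are the dual-specificity phosphatases Dusp4, Dusp6 and Dusp10, the Sprouty inhibitors Spry2 and Spry4, the Ets factors Etv4 and Etv5, the AP-1 subunit Fosl1, and the EGF-receptor ligands Hbegf and Ereg. All 10 are on the array under a single gene symbol, of 19938 such genes. They were chosen by name with measured values of these arrays in view, namely the log2 differences in the contrasts of Apc Min/Min embryonic stem cells (ESCs), of organoids with 4-hydroxytamoxifen (4-OHT) and of S33 cells with doxycycline (dox). Those contrasts are therefore described and not tested. The study compared cell types under Apc mutation and under induction of mutant beta-catenin. Reprogrammed colon tumour cells (RTCs, 3 arrays) come from colon tumour cells by reprogramming. Derivatives of them filled 2 arrays, #45 from RTC#1 and #9 from RTC#3. Of 3 ESC arrays, the first was wild type for Apc (Apc +/+), the second Apc Min/+ and the third Apc Min/Min. Min truncates Apc, the scaffold that holds beta-catenin low. Small intestinal organoids (labelled Crypt, 2 arrays) and embryonic fibroblasts (MEFs, 4 arrays) were derived from #45 and kept without 4-OHT or given it for 2 days, at 1 uM (organoids) or at 2 ug/ml (MEFs). S33 ESCs and S33 MEFs were each measured without and with dox, on 1 array each. The labels give no age, strain, dose of dox or promoter, and leave unsaid how the derivatives were altered, what S33 means and which gene 4-OHT acts on. Levels are log2 intensities after quantile normalization of all arrays together, and no level is compared between genes.

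ERK is the last kinase of the Ras, Raf and MEK cascade that EGF and FGF receptors switch on. It induces its own brakes: Dusp4 and Dusp6 remove phosphate from ERK, Dusp10 acts mainly on the stress kinases p38 and JNK, and Sprouty proteins damp the cascade near the receptor. Etv4, Etv5 and Fosl1 are transcription factors that ERK activity raises, and Hbegf and Ereg are released from the cell surface to bind EGF receptors on the same or neighbouring cells. In mouse ESCs the FGF4 the cells make drives ERK and exit from self-renewal, and in the gut EGF-receptor signalling supports crypt growth.

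The labelled cell types could be seen in their markers. All 10 pluripotency markers were above the array median on all 10 pluripotent arrays, all 11 intestinal epithelial markers were so on both organoid arrays, and all 8 measured fibroblast markers on the 6 MEF arrays. Axin2, the feedback gene that reports Wnt activity, was at 10.90 on the Apc Min/Min array against 8.41 on Apc +/+ and 8.61 on Apc Min/+, and at 11.27 with dox against 8.60 without in S33 MEFs. It was at 9.35 and 9.14 in S33 ESCs with and without dox, and at 10.41 to 10.57 in RTCs against 8.26 and 8.72 in the derivatives #45 and #9. Levels of markers of other lineages differed between arrays too. The mean level of 8 primitive endoderm markers was 10.28 on the Apc Min/Min array and 7.95 to 9.34 on the other pluripotent arrays. The mean of the 8 fibroblast markers on the 3 ESC arrays was 10.51 (Apc +/+), 10.52 (Apc Min/+) and 11.00 (Apc Min/Min), but 8.22 to 9.59 on the RTC, derivative and S33 ESC arrays. The mean of 8 myeloid markers was 11.09 and 10.86 on the first MEF pair and 8.62 and 8.36 on the second. These are bulk samples, so fewer cells of a type and less RNA per cell cannot be told apart. Deposited values were identical for 19.2% of probe sets between the second pair of MEF arrays and for 17.3% between Apc +/+ and Apc Min/Min. Between #9 and the second MEF arrays they were identical for 11.7% (without 4-OHT) and 9.52% (with 4-OHT). In all other pairs it was at most 0.104%.

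Promoter sequences are shown for Dusp10 and Dusp6, because these phosphatases went apart in the Apc Min/Min contrast below: Dusp10 was 2.92-fold higher on the Apc Min/Min than on the Apc +/+ array, and Dusp6 was 1.13-fold lower. They are the 250 bases before the RefSeq start, 5′ to 3′ on the plus strand of GRCm38.p6, at chr1:184034131-184034380 for Dusp10 and chr10:99262981-99263230 for Dusp6, with each GGAA or TTCC, the core of Ets-factor sites on either strand, in capitals.
Dusp10: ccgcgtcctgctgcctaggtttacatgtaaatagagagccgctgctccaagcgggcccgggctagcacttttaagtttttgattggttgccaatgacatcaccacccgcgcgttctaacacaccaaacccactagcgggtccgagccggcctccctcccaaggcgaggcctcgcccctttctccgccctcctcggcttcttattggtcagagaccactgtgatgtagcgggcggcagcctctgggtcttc
Dusp6: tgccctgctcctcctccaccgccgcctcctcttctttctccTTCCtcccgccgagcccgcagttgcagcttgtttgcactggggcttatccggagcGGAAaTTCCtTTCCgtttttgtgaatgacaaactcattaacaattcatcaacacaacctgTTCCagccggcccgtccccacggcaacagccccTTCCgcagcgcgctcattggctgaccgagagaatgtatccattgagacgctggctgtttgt
The Dusp6 window held 6 such cores and the Dusp10 window 0. Of all 32851 windows of this length, 93.4% held at least 1, the median was 3, and 91.3% held fewer than Dusp6. The GGAA core was chosen for display after the data were seen. Dusp6 and Dusp10 did not go apart in every contrast: with 4-OHT both were higher in value, in organoids (0.64 and 0.47) and in MEFs. Longer motifs were searched on both strands in the 5 windows that the RefSeq table gave for 4 of the 10 genes, Dusp6, Dusp10, Spry2 and Etv5: TGACTCA (AP-1), CCGGAAG (Ets), TGACGTCA (CRE) and CTTTGAT (Tcf/Lef). None of the 5 held any of them, against 4.46%, 6.91%, 1.55% and 3.21% of all windows. CCGGAAG contains the GGAA core and the other motifs do not. Of GGAA cores, the Spry2 window held 3 and the Etv5 windows held 4 and 0. A match, or none, describes the letters of these windows only.

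Across the 18 arrays the 10 genes differed in how far they ranged. Ereg ranged most, from 7.02 on S33 ESCs with dox to 11.47 on Apc Min/Min ESCs (SD 1.42 over 18 arrays), followed by Spry4 from 8.27 to 12.37 (SD 1.16) and Fosl1 from 8.16 to 11.57 (SD 1.12). Dusp6 ranged least, from 10.32 on the organoid array without 4-OHT to 11.39 on S33 ESCs with dox (SD 0.29). By cell type, Spry4, Spry2 and Etv5 were lowest in organoids, Etv4 was lowest in MEFs, and Fosl1 and Ereg were high in MEFs and on the Apc Min/Min array. Both organoid arrays lay below the other 16 in Spry4 (8.36 and 8.27 without and with 4-OHT), in Spry2 (9.23 and 9.26) and in Etv5 (9.62 and 9.57). All 6 MEF arrays lay below the other 12 in Etv4, at 8.24 to 9.36 with a median of 8.75.

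**Figure D1:**
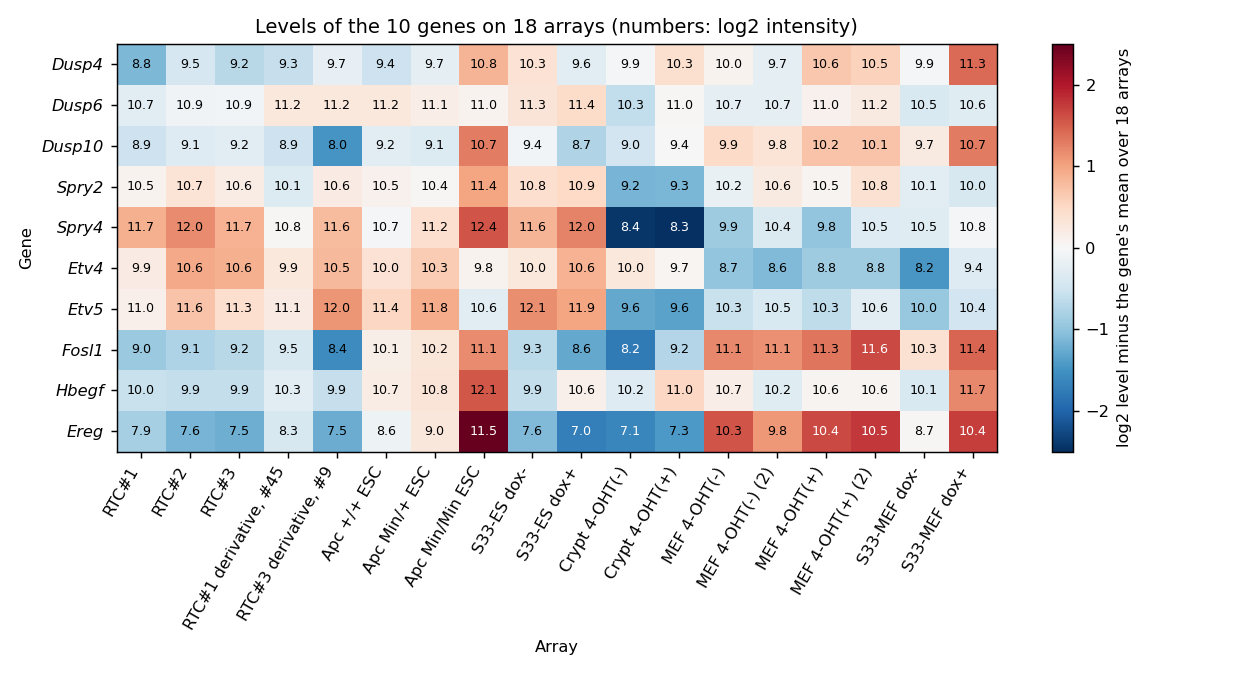
Levels of the 10 genes (rows) on the 18 arrays (columns), with the log2 intensity printed in each cell and the colour giving the difference from that gene's mean over all arrays (red higher, blue lower). The darkest red is Ereg on Apc Min/Min (11.47), and the darkest blue is Spry4 on the organoid arrays (8.36 and 8.27).

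Apc Min/Min ESCs carried more of both ligands, of both Sprouty genes and of 2 of the 3 phosphatases than the Apc +/+ array, but no more of Dusp6 or of the Ets factors. At least 2-fold higher were 6 of the 10 genes, and 0 were as much lower. Over all 11390 genes measured there, 4.6% were at least 2-fold higher, 5.65% as much lower and 10.3% were 2-fold apart in either direction. The 10 genes had a median difference of 1.20, and all genes of -0.06. The genes were grouped with this contrast in view, so the count is a description. These are single arrays without a replicate check.

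Among the ligands, Ereg was at 11.47 on Apc Min/Min, 8.61 on Apc +/+ and 9.01 on Apc Min/+, which is 7.27-fold above Apc +/+ and larger than the difference of 99.7% of genes. Hbegf was at 12.06, 10.69 and 10.83 in the same order, a 2.59-fold difference from Apc +/+. On both ligands the Apc Min/+ array lay close to Apc +/+, 0.40 higher for Ereg and 0.14 for Hbegf.

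Among the phosphatases, Dusp10 was at 10.73 on Apc Min/Min, 9.18 on Apc +/+ and 9.10 on Apc Min/+, and Dusp4 was at 10.77, 9.41 and 9.67. Dusp6, the phosphatase most specific for ERK, was at 11.03, 11.20 and 11.11, so all 3 ESC arrays lay within 0.18 of each other. Of the Sprouty genes, Spry4 was at 12.37, 10.75 and 11.20 (3.07-fold above Apc +/+), and Spry2 at 11.39, 10.51 and 10.42 (1.84-fold).

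The transcription factors split. Fosl1 was at 11.11 on Apc Min/Min against 10.06 on Apc +/+ and 10.23 on Apc Min/+. Its difference of 1.04 from Apc +/+ was just past 2-fold, and it was 0.88 from Apc Min/+, 0.91 as deposited and 0.93 with arrays centred on their median. Etv4 was at 9.78 against 10.04 and 10.33, and Etv5 at 10.64 against 11.42 and 11.83. Etv5 has a second probe set, which read 11.39 on Apc Min/Min and 11.49 on Apc +/+, so the lower Etv5 level of the first probe set (-0.78) was -0.09 in the second.

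The Apc Min/Min array was the highest of the 10 pluripotent arrays in 7 of the genes, Dusp4, Dusp10, Spry2, Spry4, Fosl1, Hbegf and Ereg, and the lowest in Etv4 and, by its first probe set, Etv5. In the second Etv5 probe set RTC#1 (10.49), RTC#2 (11.12), RTC#3 (11.08) and #45 (10.96) lay below the Apc Min/Min array (11.39). Fibroblast markers (11.00 against 10.51) and primitive endoderm markers (10.28 against 8.06) were higher there than on Apc +/+, with 7 of 8 primitive endoderm markers above the array median against 4 of 8, and Sox17, which specifies endoderm, at 10.93 against 6.70. Their part in these differences was not tested. The levels of Ereg, Hbegf, Spry2, Spry4 and Etv4 on the Apc Min/Min array were above those on every one of the 6 MEF arrays. Those of Fosl1 (11.11), Dusp4 (10.77) and Dusp10 (10.727) were not, as the highest MEF levels were 11.57, 11.34 and 10.730. Etv4 was above the MEFs on all other pluripotent arrays too, and Spry4 on all of them but Apc +/+. The growth protocol names a trophoblast stem cell medium with recombinant FGF4 for Apc Min/Min ESCs and a medium with LIF for the other ESCs. It does not say which of these the hybridised cells were in, and genotype and medium cannot be told apart here.

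In S33 MEFs dox went with more of both ligands, of Fosl1, of Etv4, of Dusp4 and of Dusp10, each at least 2-fold. These are 6 of 10 genes, with 0 as much lower, against 2.5% of all 11390 genes higher by 2-fold, 3.71% lower and 6.22% apart in either direction. The median difference was 1.07 for the 10 genes and 0.04 for all. Ereg was at 10.44 with dox and 8.75 without (3.24-fold), and Hbegf at 11.72 and 10.13 (3.01-fold). Dusp4 was at 11.34 and 9.86 (2.79-fold), the highest Dusp4 level of the 18 arrays, and Dusp10 at 10.73 and 9.67 (2.08-fold). Fosl1 was at 11.38 and 10.31 (2.11-fold), and Etv4 at 9.36 and 8.24 (2.18-fold). Dusp6 (10.62 and 10.55), Spry2 (9.99 and 10.11), Spry4 (10.76 and 10.48) and Etv5 (10.42 and 9.96) were less than 2-fold apart. The level without dox was the lowest of the 6 MEF arrays for Ereg, Fosl1, Hbegf, Dusp6, Dusp10, Etv4 and Etv5. Fibroblast markers were at a mean of 12.20 with dox and 12.92 without, and 1 of 8 myeloid markers was above the median on either array.

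Ereg, Hbegf, Fosl1, Dusp4 and Dusp10 were thus past 2-fold in both contrasts. The contrasts share no array, but both were in view when the genes were chosen, so this overlap is a description. Spry4 was so on Apc Min/Min only and Etv4 in S33 MEFs only.

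In S33 ESCs no gene reached 2-fold with dox, against 3.16% of 11254 genes (0.986% higher and 2.18% lower). Hbegf was at 10.63 with dox and 9.91 without, and Etv4 at 10.56 and 9.95. Dusp10 was at 8.69 and 9.38, Dusp4 at 9.63 and 10.27, and Fosl1 at 8.65 and 9.25, all lower with dox. Ereg, at 7.02 and 7.62, was below the array median on both arrays and did not enter the count, which leaves 9 genes. The mean of the fibroblast markers was 8.22 with dox and 9.11 without. Its part in these lower values was not tested.

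Organoids with 4-OHT had more Fosl1, at 9.19 against 8.16 (2.05-fold), the only one of 9 measured genes past 2-fold, where 2.1% of 11397 genes were as much higher, 0.746% lower and 2.84% were apart in either direction. Hbegf was at 11.02 against 10.18 (1.79-fold), Dusp6 at 10.96 against 10.32 (1.56-fold), Dusp10 at 9.42 against 8.95 and Dusp4 at 10.33 against 9.89. Spry2, Spry4, Etv4 and Etv5 were within 0.22 of each other between the arrays. Ereg, at 7.28 and 7.09, was below the median on both. The scaling matters for this pair, because the deposited median intensity was 142 with 4-OHT and 218 without: the median difference of all genes was -0.22 as deposited and 0.40 with arrays centred on their median, and Fosl1 differed by 0.69 and 1.32 in these. Organoid medium contains EGF, per the labels.

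**Figure D2:**
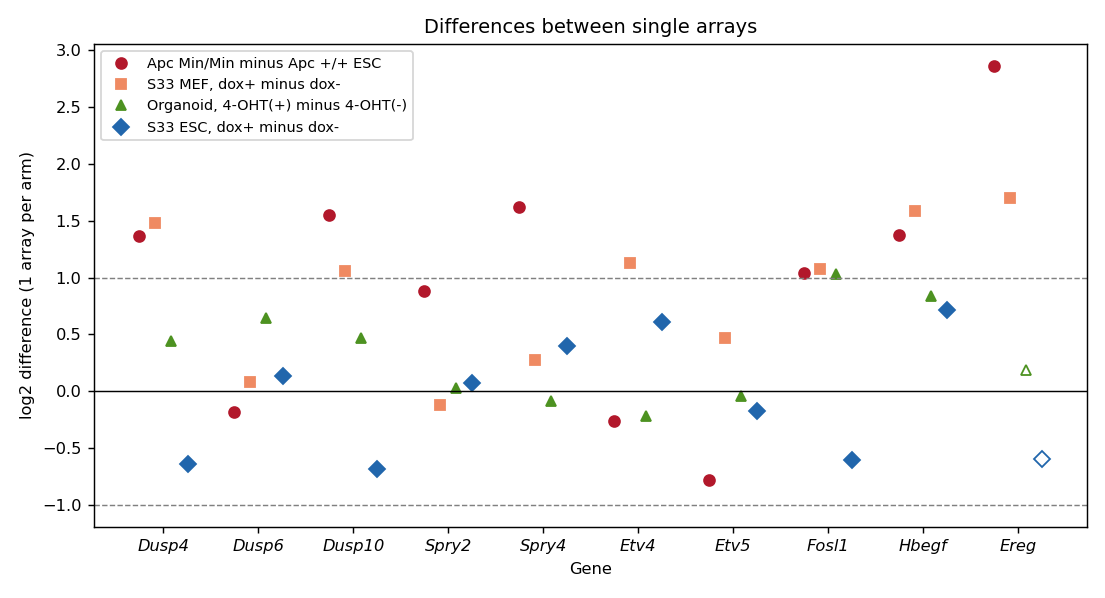
Differences in log2 level (y axis) of the 10 genes (x axis) in the 4 contrasts with 1 array per arm, as named in the key; open symbols are Ereg where it was below the median on both arrays, and dashed lines mark 2-fold. Ereg, Hbegf, Fosl1, Dusp4 and Dusp10 are past the upper line for both Apc Min/Min ESCs and S33 MEFs, and the S33 ESC points of Dusp4, Dusp10 and Fosl1 lie below 0.

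Replicated comparisons that were not used to choose the genes came next. They were tested with limma and adjusted by Benjamini-Hochberg over all genes measured. The labels do not say whether arrays of a group were separate cultures, so these p-values may measure technical spread. The comparisons share arrays: the same ESCs serve against RTCs, derivatives and MEFs, and RTCs, derivatives and untreated MEFs each serve in 2 of them. Apc +/+ and the S33 arrays without dox also served in the contrasts above.

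RTCs were compared with ESCs (Apc +/+, Apc Min/+ and S33 without dox). None of the 10 genes passed the test, against 6.69% of 12080 genes (3.21% higher and 3.48% lower), and 5 had an unadjusted p under 0.05, against 23.6%. Dusp6 had the lowest adjusted p of the 10. It was at 10.66, 10.85 and 10.87 in RTC#1, RTC#2 and RTC#3 and at 11.20, 11.11 and 11.25 in the ESCs, in the order just given, a difference of -0.39 ± 0.12 (SE, n = 3 and 3, limma adjusted p = 0.105). The groups did not overlap in Dusp6, Spry4 and Fosl1, as in 31.9% of all genes. Spry4 was at 11.67, 11.97 and 11.65 in RTCs and 10.75, 11.20 and 11.63 in the same ESCs (0.57 ± 0.23, adjusted p = 0.186).

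Fosl1 and the ligands ran lower in value in RTCs, and the S33 array decided whether they passed. Fosl1 was at 9.00, 9.15 and 9.23 in RTCs and at 10.06, 10.23 and 9.25 in the ESCs, S33 last (-0.72 ± 0.25, adjusted p = 0.136). Ereg was at 7.89, 7.57 and 7.51 against 8.61, 9.01 and 7.62 (-0.75 ± 0.33, adjusted p = 0.222). Ereg was below the array median on the RTC and S33 arrays, and entered the test only through Apc +/+ and Apc Min/+, where it was higher. Hbegf was at 9.96, 9.91 and 9.90 against 10.69, 10.83 and 9.91 (-0.55 ± 0.23, adjusted p = 0.211). In all 3 genes the S33 array lay near the RTCs and away from the other ESCs. Without S33, 4 genes passed, Fosl1 (-1.02, adjusted p = 0.00595), Hbegf (-0.83, adjusted p = 0.00862) and Ereg (-1.15, adjusted p = 0.011) lower and Spry4 (0.79, adjusted p = 0.0388) higher in RTCs. Without that array 9.83% of all 11905 genes passed. Fibroblast markers move with this: their mean level was 9.11 in S33 ESCs and 8.96 to 9.59 in RTCs, against 10.51 (Apc +/+) and 10.52 (Apc Min/+). The mean of 10 trophoblast markers moves the same way, at 8.24 in S33 ESCs and 7.81 to 8.21 in RTCs, against 8.81 (Apc +/+) and 8.75 (Apc Min/+). The part of either list was not tested. Spry2 (0.03, 95% interval -0.32 to 0.38) and Dusp10 (-0.15, -0.47 to 0.16) lay closest to no difference.

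RTCs did not differ from their derivatives in a way that passed the test for any of the 10 genes, against 1.6% of 11940 genes called (0.838% higher and 0.762% lower). Dusp10 was at 8.92, 9.12 and 9.16 in RTC#1, RTC#2 and RTC#3, and at 8.91 in #45 and 7.96 in #9 (0.63 ± 0.29, n = 3 and 2, adjusted p = 0.389). The derivatives thus differed from each other more than #45 did from the RTCs, and without #45 Dusp10 passed (1.11, adjusted p = 0.0472), as did 3.25% of all 11794 genes. Dusp6 was at 11.21 and 11.20 in #45 and #9, above all 3 RTCs (-0.41 ± 0.17, adjusted p = 0.353). Spry4 was at 10.82 and 11.58, below all 3 RTCs (0.57 ± 0.26, adjusted p = 0.389). In these 3 genes the groups did not overlap, as in 31.1% of all genes. Ereg (7.89, 7.57 and 7.51 against 8.32 and 7.49) and Hbegf (9.96, 9.91 and 9.90 against 10.25 and 9.93) overlapped between the groups.

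Between derivatives and ESCs limma called 0 of 11941 genes, with 8.48% at an unadjusted p under 0.05 and 1 of the 10 genes among them. That gene was Dusp10, with both derivatives below the 3 ESC arrays, as groups did not overlap in 25.5% of all genes (-0.78 ± 0.30, n = 2 and 3, adjusted p = 0.564).

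Between MEFs with and without 4-OHT limma called 0 of 11603 genes, with 4.47% at an unadjusted p under 0.05, among them 3 of the 10 genes, Dusp4, Dusp6 and Dusp10. Dusp4 was at 10.60 and 10.50 with 4-OHT and at 10.01 and 9.67 without, in the first and second pair (0.70 ± 0.15, n = 2 and 2, adjusted p = 1.00). Dusp6 was at 11.05 and 11.16 with and at 10.70 on both arrays without (0.41 ± 0.09, adjusted p = 1.00). Dusp10 was at 10.15 and 10.14 with and 9.92 and 9.77 without (0.30 ± 0.10, adjusted p = 1.00). In 6 of the 10 genes the groups did not overlap, all higher with 4-OHT; of all genes 32.8% did not overlap and 17.9% were higher in that way. Ereg, at 10.38 and 10.49 with against 10.30 and 9.80 without, and Fosl1, at 11.27 and 11.57 against 11.13 and 11.06, were among these. Spry4 and Etv5 differed between the pairs more than with treatment. Axin2 was at 8.53 and 8.81 with and 8.55 and 8.63 without.

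Untreated MEFs (both #45-derived arrays and S33 without dox) differed from the ESCs in 6 of the 10 genes, 2 higher and 4 lower, while 61.3% of 12681 genes were called (31.4% higher and 29.9% lower). The groups did not overlap in these 6 genes, nor in 69.5% of all genes. The Ets factors were the furthest apart. Etv4 was at 8.70, 8.59 and 8.24 in the MEFs and at 10.04, 10.33 and 9.95 in the ESCs, S33 last in each (-1.60 ± 0.17, SE, n = 3 and 3, adjusted p = 0.000367), and Etv5 was at 10.34, 10.53 and 9.96 against 11.42, 11.83 and 12.07 (-1.50 ± 0.22, adjusted p = 0.00125). Spry4 was lower at 9.90, 10.43 and 10.48 (-0.92 ± 0.26, adjusted p = 0.0202), and Dusp6 at 10.70, 10.70 and 10.55 (-0.54 ± 0.11, adjusted p = 0.0049). Dusp10 was higher in MEFs at 9.92, 9.77 and 9.67 (0.57 ± 0.13, adjusted p = 0.00779), as was Fosl1 at 11.13, 11.06 and 10.31 (0.99 ± 0.32, adjusted p = 0.0343).

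The calls of Fosl1, Spry4 and Dusp6 did not pass in every setting, though the differences kept their direction and several hardly moved: Fosl1 was 0.99 as deposited and 1.09 without Apc +/+, Spry4 -0.92 without Apc Min/+ and Dusp6 -0.51 as deposited. The lowest Fosl1 difference was 0.69, without S33 ESCs. Fosl1 was lost as deposited (adjusted p = 0.0508), with centred arrays (0.073) and on leaving out any of 4 arrays, the first MEF array (0.0997), the second (0.0978), Apc +/+ (0.0565) or S33 ESCs (0.0709). Spry4 was lost without the first MEF array (0.0591) or Apc Min/+ (0.0576), and Dusp6 as deposited (0.061). Ereg was at 10.30, 9.80 and 8.75 in MEFs and missed the threshold (1.20 ± 0.49, adjusted p = 0.0679), but passed without the S33 MEF array (1.64, adjusted p = 0.0181). Hbegf (-0.14, 95% interval -0.79 to 0.51), Spry2 (-0.27, -0.70 to 0.17) and Dusp4 (0.07, -0.49 to 0.62) did not pass. Myeloid markers had a mean of 11.09 on the first MEF array, 8.62 on the second and 7.05 on S33 MEFs, and their part was not tested.

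**Figure D3:**
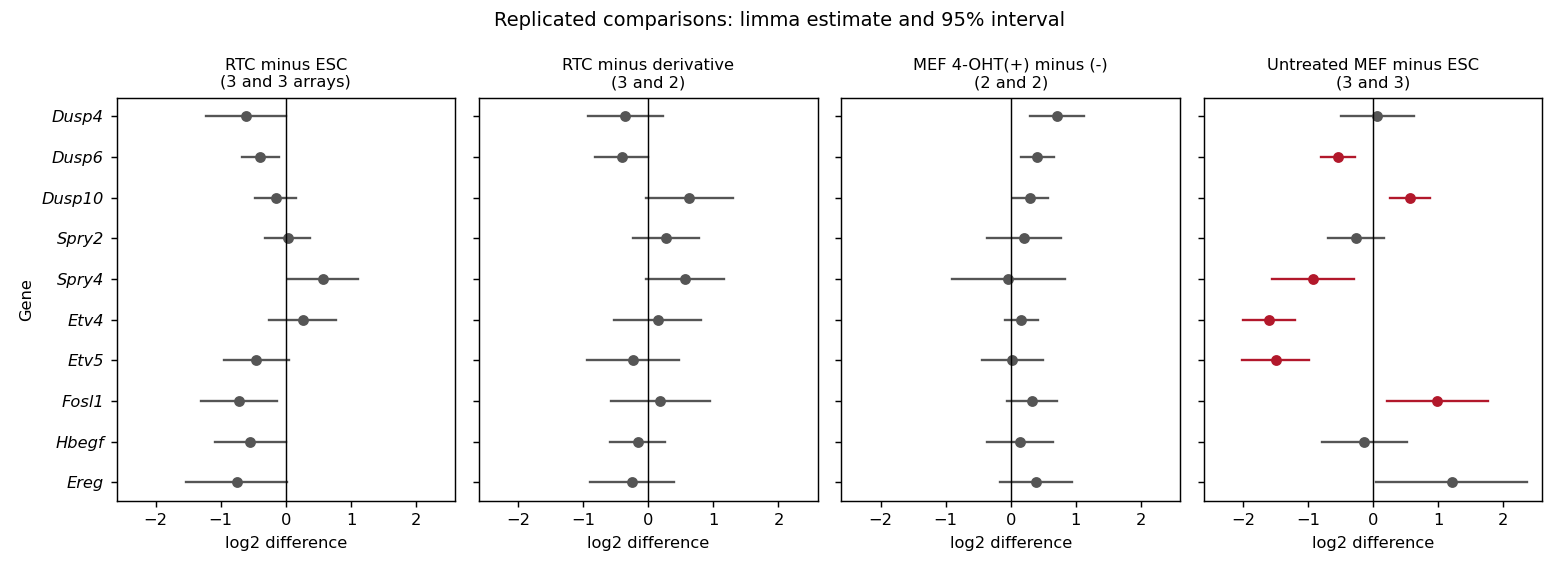
Differences in log2 level (x axis) of the 10 genes (y axis) in 4 replicated comparisons, as limma estimates with 95% intervals; red marks an adjusted p under 0.05. Red appears in the right panel alone, in 6 genes, of which Etv4 (-1.60) and Etv5 (-1.50) lie furthest from 0. Derivatives against ESCs, with 0 genes called, are not drawn.

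Other genes of the pathway were read from lists of 98 names, 90 of them on the array under a single symbol. The lists, like the 10 genes, were chosen with earlier results of these data known. Their shares in the contrasts of single arrays are therefore descriptions and no separate evidence. On the Apc Min/Min array 16 of 78 measured were at least 2-fold higher than on Apc +/+ and 2 lower, which is 23.1%, against 10.3% of all genes, with a median difference of 0.17. ERK-responsive genes gave 6 of 14, led by the ephrin receptor Epha4 (2.18), the urokinase receptor Plaur (1.21), the ephrin receptor Epha2 (1.17) and the prostaglandin synthase Ptgs2 (1.10). Ets, AP-1 and Egr factors gave 4 higher, led by Fosb (2.00) and Egr2 (1.21), and 1 lower, Etv1 (-1.69), of 15. Of 7 other dual-specificity phosphatases, Dusp14 (1.15) and Dusp5 (1.12) were higher, and of 5 Sprouty and Spred genes, Spry3 was (1.41). Fosb, Egr2 and Spry3 were below the array median on Apc +/+, at 7.66, 7.79 and 6.62. They counted as measured only through the Apc Min/Min array, at 9.66, 9.00 and 8.03. Among 8 FGF ligands Fgf7 (1.38) and Fgf18 (1.33) were higher and Fgf17 (-1.20) lower, and the Ras brake Nf1 was 1.37 higher of 9 cascade genes. None of the 6 measured EGF receptors and receptor inhibitors was 2-fold apart.

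In S33 MEFs with dox 5 of 75 such genes were 2-fold higher and 1 lower, which is 8%, against 6.22% of all genes. The stress phosphatase Dusp1 (1.58), Plaur (1.53), Ptgs2 (1.20), Fgf2 (1.09) and Phlda1 (1.03), a gene induced by growth factors, were higher, and Fgf7 was lower (-1.67). Plaur, Ptgs2 and Phlda1 were higher on Apc Min/Min as well. In S33 ESCs 0 were higher and 6 of 78 lower (7.69%, against 3.16% of all genes), 5 of them FGF ligands, led by Fgf7 (-1.60), Fgf5 (-1.51), a mark of primed pluripotency, Fgf15 (-1.29) and Fgf8 (-1.25). Fgf7, Fgf5 and Fgf2 were below the array median with dox, at 6.58, 7.88 and 7.81. They counted as measured only through the array without dox, at 8.18, 9.39 and 9.03. The fibroblast marker mean was lower with dox too (8.22 against 9.11), and its part was not tested. In organoids with 4-OHT the Ets factor Elk3 was higher (1.40) and Fgf1 lower (-1.10), of 72 (2.78%, against 2.84% of all genes). Elk3 was below the array median without 4-OHT, at 7.57, and counted as measured only through the array with it, at 8.97.

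In the tested comparisons, RTCs had 5 of 79 pathway genes lower than ESCs and 1 higher, which is 7.59%, near the 6.69% of all genes. Fgfr2 fell most (-1.91 ± 0.15, adjusted p = 0.0011), and it was the only one to pass against derivatives (-1.50 ± 0.22, adjusted p = 0.0264). Its mean in RTCs, 7.45, was below the array median. The means in ESCs (9.36) and derivatives (8.95), which let it count as measured, were above it. Jun (-1.39), Zfp36, which destabilises cytokine mRNAs (-1.26), Ptgs2 (-1.05) and Dusp5 (-0.79) fell too, and Fgfr4 rose by 0.58 with an adjusted p of 0.0499. The Fgfr4 mean in ESCs (7.86) was below the array median. Between untreated MEFs and ESCs 36 of 78 rose and 12 fell, which is 61.5%, near the 61.3% of all genes called there. Among the receptors, Egfr (2.22), Erbb2 (1.09) and Fgfr1 (1.39) were higher in MEFs and Erbb3 was lower (-2.51). The Erbb3 mean was below the array median in MEFs (7.51) and above it in ESCs (10.03), which let it count as measured. Fgf4, the ligand ESCs make, fell by 4.50 on the log2 scale the phosphatase Dusp9 fell by 2.74, and Fosl2 rose by 2.27.

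The genes did not vary as one block. Over the 18 arrays, 26 of 45 pairs had a positive Pearson r, with a median of 0.13. Fosl1 and Ereg were the closest pair (r = 0.95), followed by Dusp10 and Fosl1 (0.87), Spry2 and Spry4 (0.86) and Dusp10 and Ereg (0.85), and Etv4 ran against Fosl1 (-0.72). These arrays share cell types, so the values partly follow the cell type. Within the 10 pluripotent arrays Fosl1 and Ereg had r = 0.92, and 0.89 without Apc Min/Min. Within the 6 MEF arrays it was 0.97. Spry2 and Spry4 had r = 0.85 in the pluripotent arrays and 0.79 without Apc Min/Min. Spry4 and Ereg, both high on Apc Min/Min, had r = -0.82 over the other 9 pluripotent arrays.

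Genes outside the set with the pattern most like Ereg over 18 arrays, of 13927 compared, were the cytokine Il11 (r = 0.94), the protein C receptor Procr (0.92) and the cytokine Clcf1 (0.91). Those most like Dusp6 were less close: Zfp646 (0.82), Rnf115 (0.79) and Snx27 (0.78).

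Within the pluripotent arrays the mean of the 8 fibroblast markers followed Fosl1 (r = 0.90 over 10 arrays, 0.85 over 9 without Apc Min/Min) and Ereg (0.84 and 0.84). Apc +/+ (10.51) and Apc Min/+ (10.52) stood apart in this mean from the RTC, derivative and S33 arrays (8.22 to 9.59). They carry much of the r over 9 arrays, and Ereg was below the array median on most of the others. The fibroblast mean followed Hbegf (0.68 and 0.41) and Dusp10 (0.67 and 0.41) less, and for Spry4 r was -0.10 and -0.62. Other lists followed some of the genes too. The trophoblast markers had r = 0.72 and 0.82 with Fosl1, 0.52 and 0.66 with Hbegf, and 0.48 and 0.64 with Ereg. The primitive endoderm markers had 0.72 and 0.21 with Dusp10, 0.76 and 0.42 with Spry2, and 0.72 and 0.57 with Spry4. Whether this is RNA of other cells or of the stem cells was not tested.

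**Figure D4:**
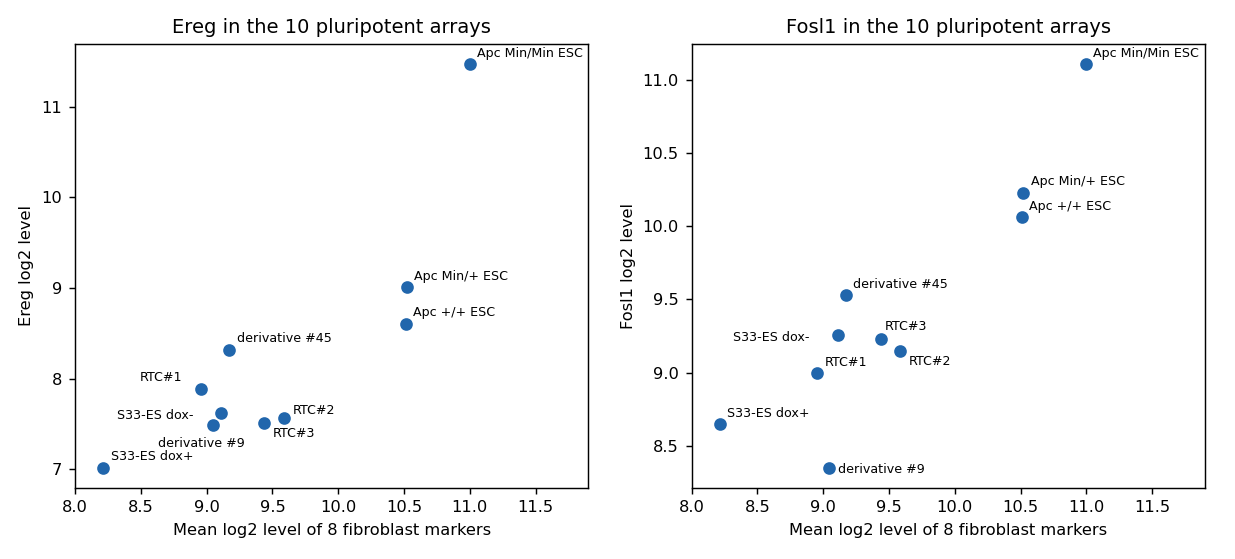
Ereg (left) and Fosl1 (right) log2 levels against the mean log2 level of 8 fibroblast markers on the 10 pluripotent arrays, 1 point per array. Apc +/+ and Apc Min/+ lie to the right of the RTC, derivative and S33 arrays in both panels, and Apc Min/Min is highest (Ereg 11.47, Fosl1 11.11).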

How the data were processed

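Total RNA of 18 samples was hybridised to 1-colour Affymetrix arrays, 1 per sample, with biotin labelling, per the labels' protocols. The authors deposited linear intensity values for 28856 probe sets (3 without values); background correction, summarization and scaling are not given in the sources used here. Because arrays do not share a scale (deposited medians 142 to 317), log2 intensities were quantile normalized together. Of the probe sets, 21789 have 1 gene symbol, 1621 several and 5443 none; of the first, 21698 matched RefSeq genes (GRCm38.p6) by Entrez identifier and 0 symbols changed. A gene was read from whichever of its probe sets had the highest mean. A gene was measured in a comparison if above the array median (percentile 50) on at least 1 array. Tests were limma 3.58.1 in R 4.3.3 (lmFit, eBayes, two-sided, Benjamini-Hochberg at 0.05), tested on simulated data; contrasts with 1 array per arm were not tested and 2-fold was counted. The number of arrays limits precision.

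Line of origin pairs RTC#1 with #45 and RTC#3 with #9; the correlation of their deviations was 0.07, and the blocked fit changed no call among the 10 genes. Named were all 10 genes, pathway genes past the threshold (at most 4 per list), and the 3 genes most like Dusp6 and Ereg. The genes and lists were chosen with earlier results of these data known. Alternatives covered scaling, an added constant of 16, probe sets, filters, an intensity trend, blocks, other control arrays and each array left out.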

Additional observations from a re-analysis of the deposited data

Results flagged for a closer look

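Dusp4, Dusp10 and Fosl1 differed in opposite directions with dox in S33 MEFs and S33 ESCs, by at least 1.5-fold in each. Dusp4 was 1.48 with dox minus without in MEFs and -0.64 in ESCs (log2), which puts the effects 2.12 apart. Dusp10 was at 1.06 and -0.68, 1.74 apart. Fosl1 was at 1.08 and -0.61, 1.68 apart. Each effect is a difference between 1 array and another, and the difference between the cell types was not tested. Axin2 was 11.27 against 8.60 in MEFs and 9.35 against 9.14 in ESCs, with and without dox.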

How the results depend on the processing

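The number of the 10 genes past the threshold stayed within 1.5 times its value in most settings tried. In RTCs against ESCs it was 0, and 0 to 4 with each array left out (4 without S33 ESCs). In RTCs against derivatives it was 0, and 0 to 1 with an array left out (1 without #45); with the replicate block by line of origin it was 0. In MEFs with 4-OHT it was 0, but 1 (Dusp4, 0.70, adjusted p = 0.0455) with the replicate block by the number in the titles, where 148 genes were called in place of 0; same-numbered arrays had deviations correlated at 0.83, but the labels do not say that the numbers pair the cultures. In untreated MEFs against ESCs it was 6, 4 as deposited, 5 with centred arrays, and 4 to 7 with an array left out. In organoids it was 1, and 0 as deposited, 3 with arrays centred on their median (Dusp6 1.11, Fosl1 1.32, Hbegf 1.31) and 0 with 16 added before log2. There, 239 genes were higher and 85 lower, as deposited 104 and 622, and with centred arrays 575 and 38. In Apc Min/Min against Apc +/+ it was 6, and 5 as deposited, with centred arrays or against the mean of Apc +/+ and Apc Min/+, where Fosl1 (0.91, 0.93 and 0.96) was under 2-fold; in S33 MEFs it was 6 and in S33 ESCs 0 in every setting. With Apc Min/+ as control it was again 6, where Etv5 (-1.19) was past 2-fold and Fosl1 (0.88) was not. The second Etv5 probe set gave -0.16 against Apc Min/+. No called gene changed direction in any setting. Genes called overall varied more: RTCs against ESCs gave 808 (388 higher and 420 lower), 358 as deposited (213 and 145), 867 with centred arrays (272 and 595) and 234 to 1170 with an array left out, and RTCs against derivatives 191 (100 and 91), 81 as deposited (58 and 23), 212 centred (95 and 117) and 33 to 383; derivatives against ESCs gave 0, and 11 as deposited. Leaving out an array of a pair leaves 1 array in that arm, which is assumed to vary like the other arm. The causes were not tested.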
